A study of Homo sapiens with 4 samples.

Results

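The 36 genes described here are ATF4, CHOP (DDIT3) and genes that act with them or downstream of them, together with the enzymes and carriers that supply cells with amino acids. They were taken by gene symbol from the deposited table, which holds 19749 genes, and all 36 were found and tested. U87 is a human glioblastoma cell line. One group of 2 libraries came from U87 cells given YZ129, a small molecule that the series title places against the HSP90, calcineurin and NFAT pathway, at 5 µM for 24 h, and the other 2 from U87 cells given the vehicle DMSO; poly(A) RNA was sequenced in both. The labels do not tell whether the paired libraries were grown as separate cultures, and the p-values then cover only library-to-library spread, which may be technical. In bulk RNA, fewer cells of a kind and less RNA per cell cannot be told apart.

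ATF4 is a transcription factor whose protein is made when the initiation factor eIF2α is phosphorylated, which happens when amino acids run short, when proteins misfold in the endoplasmic reticulum or when heme is scarce. It pairs with C/EBP proteins on C/EBP-ATF response elements and switches on CHOP, amino acid transporters, asparagine synthetase and the serine and one-carbon enzymes. With CHOP it also switches on TRIB3, CHAC1 and the phosphatase subunit PPP1R15A, which feeds back on eIF2α. Because ATF4 is controlled largely at translation, its mRNA level is a limited guide to its protein.

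The deposited table gives 1 log2 fold change per gene with its standard error (SE) and the authors' adjusted p; values per library were not analysed here. It does not say which group is the numerator, and its title lists DMSO first. A positive value is read here as higher with YZ129 because 12 of 28 cytosolic heat shock genes passed with a positive sign and 0 with a negative one (15 and 1 at an unadjusted p under 0.05, by the authors' DESeq2-type table), and inhibited HSP90 is known to set free the heat shock factor HSF1. If the numerator was DMSO, every "rose" below becomes "fell". The authors' mean level averages 8 libraries, of which 2 lay on each side of the comparison and 4 on neither; the sources used here do not tell whether those 4 entered the estimate of the SE. Of the glial and glioma markers, VIM (mean level 298885), CD44 (134994) and EGFR (6255) were abundant in the authors' deposited table. OLIG2 (96.2), GFAP (52.2) and FABP7 (15.5) were low, and ALDH1L1 (2.19), S100B (1.12) and SOX2 (0.851) were near 0. Between these lay CHI3L1 (4151), SLC1A3 (1891), NES (909), SOX9 (567) and PDGFRA (261). Of 11 tested glial and glioma markers 1 rose and 5 fell (54.5%, against 12.9% of all tested genes). In the authors' deposited table the rise was PDGFRA (0.57 ± 0.20). The falls were SLC1A3 (-1.03 ± 0.15), SOX9 (-0.94 ± 0.19), NES (-0.59 ± 0.15), VIM (-0.46 ± 0.13) and CD44 (-0.38 ± 0.13). Markers of other cell types were mixed in level in the authors' deposited table: the leukocyte marker PTPRC (2.28), CD3E (0.426) and the epithelial marker CDH1 (1.23) were near 0, while the lysosomal protein CD68 (12821), the actin bundler LCP1 (1213), ACTA2 (976) and the synaptic protein SNAP25 (716) were not. Of the 10 tested, LCP1 rose (0.69 ± 0.15) and SNAP25 fell (-1.43 ± 0.17) in the authors' deposited table, which is 20%. The part of these markers in the results below was not tested.

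The stress transcription factors ATF3 and CHOP rose with YZ129, while enzymes of serine synthesis, several amino acid carriers and the CHOP-linked genes CHAC1 and TRIB3 fell. Of the 36 genes, 15 (41.7%) passed an adjusted p of 0.05, where 12.9% of all 14812 tested genes did. The members were chosen with earlier results of these data known, so the shares here are no test of the set. The 5 rises (13.9%, against 5.24% of all tested genes) were ATF3, DDIT3, PPP1R15A, GADD45A and SLC3A2. The 10 falls (27.8%, against 7.64%) were VLDLR, CHAC1, PSAT1, SLC38A2, PHGDH, TRIB3, SHMT1, SLC1A4, MTHFD2 and SLC7A1. Since 34 of the 36 averaged 1000 or more normalized reads (the mean level), the nearer background is the 7377 tested genes at that level, of which 3.82% rose and 10.1% fell. The median change of the 36 was -0.14, that of the 7377 genes was -0.11 and that of all tested genes -0.05. Subtracting the median of all tested genes changed the split over all called genes from 776 higher and 1132 lower to 954 and 884, and subtracting that of each gene's level decile gave 920 and 804.

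The role groups had medians on both sides of 0. Stress transcription factors gave 2 rises and 0 falls among 7 (median 0.25; 3 and 0 at an unadjusted p under 0.05 by the DESeq2-type table). Stress effectors and feedback genes gave 2 rises and 3 falls among 7 (median -0.12). Serine and one-carbon enzymes gave 0 rises and 4 falls among 8 (median -0.41; 0 and 5 unadjusted). Enzymes of asparagine, proline and cysteine synthesis gave 0 calls among 5 (median -0.31; 0 rises and 2 falls unadjusted). Amino acid transporters gave 1 rise and 3 falls among 9 (median -0.13). Less the median of their level decile, the effector and transporter medians changed sign to 0.04 and 0.03, while those of the transcription factors (0.41) and serine enzymes (-0.29) did not. The differences between groups were not tested.

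**Figure D1:**
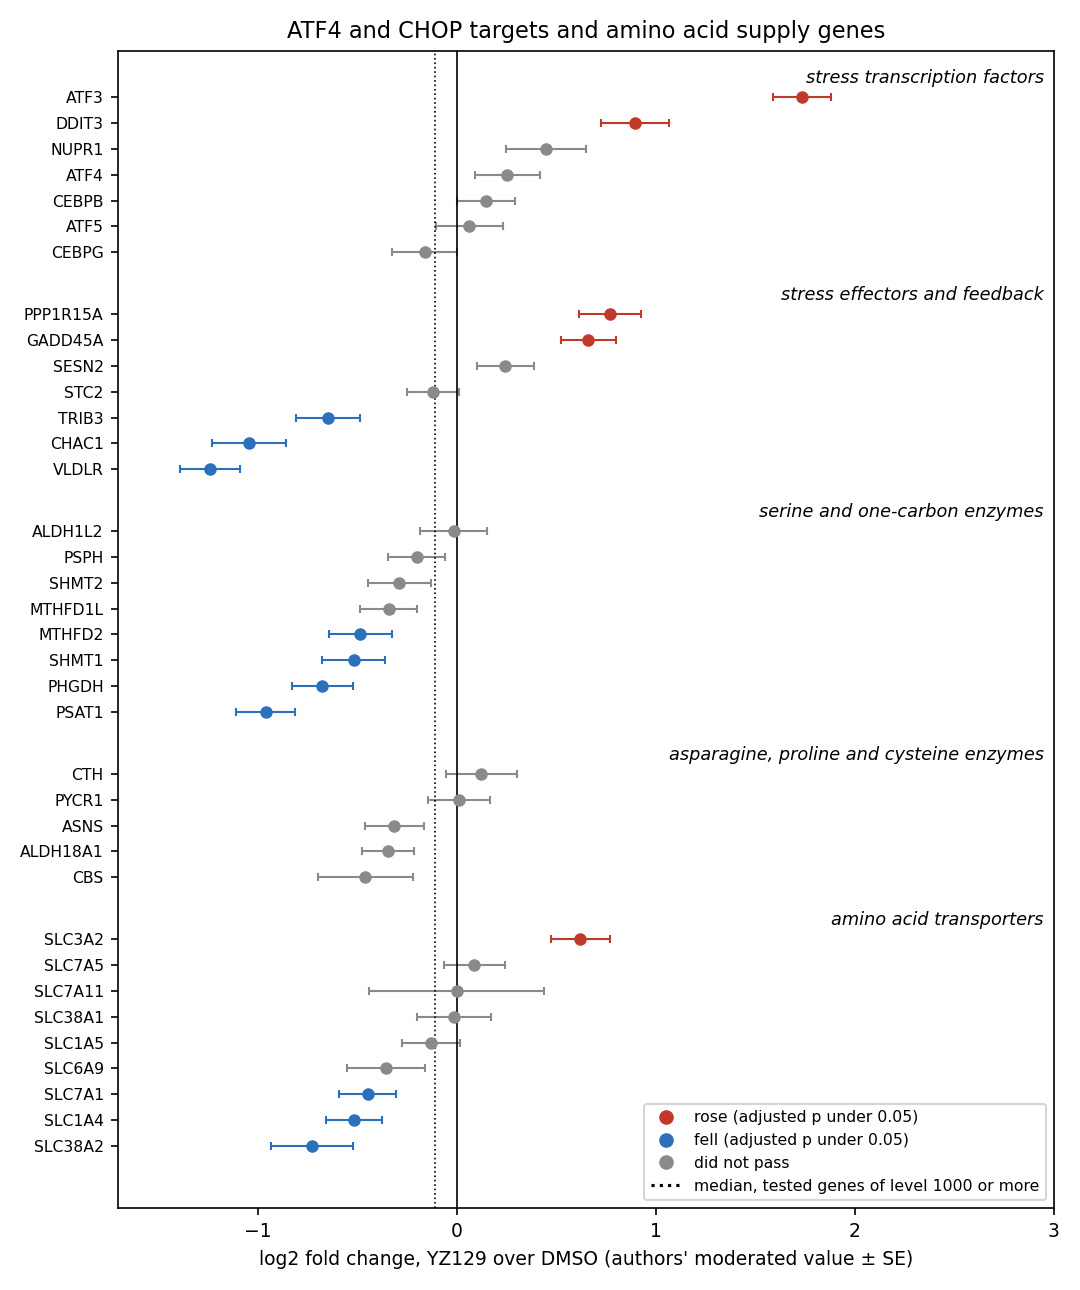
The horizontal axis is the authors' moderated log2 fold change (YZ129 over DMSO), each point is 1 gene with its SE as the bar, grouped by role, and the dotted line is the median of tested genes at a mean level of 1000 or more (-0.11). ATF3 at 1.74 and DDIT3 at 0.89 stand to the right, and all 8 serine and one-carbon enzymes lie left of 0, ALDH1L2 by only 0.02.

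The C/EBP-ATF element was looked for in the members' promoters, because it is the sequence that ATF4 and its partners are known to read. Promoter windows from RefSeq (GRCh38.p14), 250 bases before to 50 after each annotated start, were matched by symbol for 29 of the 36 genes, 50 windows in all, some of which overlap. The core TGATGNAA, on either strand, was present for 10 of these 29 genes (34.5%), for 3.2% of the 10435 tested genes with a window and for 4.46% of all 27305 genes with a window. By window the shares were 12 of 50 (24%) and 2.33% of the 15337 windows of tested genes. The members were listed as ATF4 and CHOP targets, so a higher share may follow from that choice and is no result of these libraries. The core was found upstream of or around the starts of genes that rose, fell and did not pass. The lines below give it for each of the 10 genes with the bases around it, core in capitals, on the strand where it reads TGATG.

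ATF3 (rose; chr1:212565208-212565231, plus strand): ggtcaggaTGATGGAAggctgtca

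SLC3A2 (rose; chr11:62881728-62881748, minus strand, cut at the window's end): ggagcTGATGTAAggagtcct

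CHAC1 (fell; chr15:40953254-40953277, minus strand): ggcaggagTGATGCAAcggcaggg

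SLC1A4 (fell; chr2:64989384-64989407, minus strand): gctggagaTGATGCAAacgggagc

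SLC7A1 (fell; chr13:29595666-29595689, minus strand): cgcactgcTGATGAAAcctggcgc

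ASNS (not called; chr7:97872461-97872484, minus strand): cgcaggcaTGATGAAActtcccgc

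CEBPG (not called; chr19:33374063-33374086, plus strand): gcggcgtcTGATGCAAcctgccgg

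MTHFD1L (not called; chr6:150866349-150866372, plus strand): gccggctcTGATGCAAtcgcgccg

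SLC1A5 (not called; chr19:46784896-46784919, minus strand): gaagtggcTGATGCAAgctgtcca

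SLC38A1 (not called; chr12:46266505-46266528, minus strand): gacccgaaTGATGAAAagggatca

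Of these 10 genes 2 rose, 3 fell and 5 did not pass, with a median change of -0.24. Of the 19 with a window and no core in it 2 rose, 7 fell and 10 did not pass, with a median of -0.34. Elements outside the windows were not looked for, so these 19 may hold the core elsewhere. Among these members, holding the core thus went with neither direction, and the difference was not tested. Over all tested genes with a window the median was -0.07 both with the core and without it. There were 27 rises and 33 falls among 334 genes with the core, against 474 rises and 798 falls among 10101 without it. Rises and falls each made up a larger share of the genes with the core, and this was not tested either. The core of ASNS began at position -68 from the start, that of ATF3 at -191 and that of CHAC1 at -209, where it lies on the strand opposite to the gene.

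**Figure D2:**
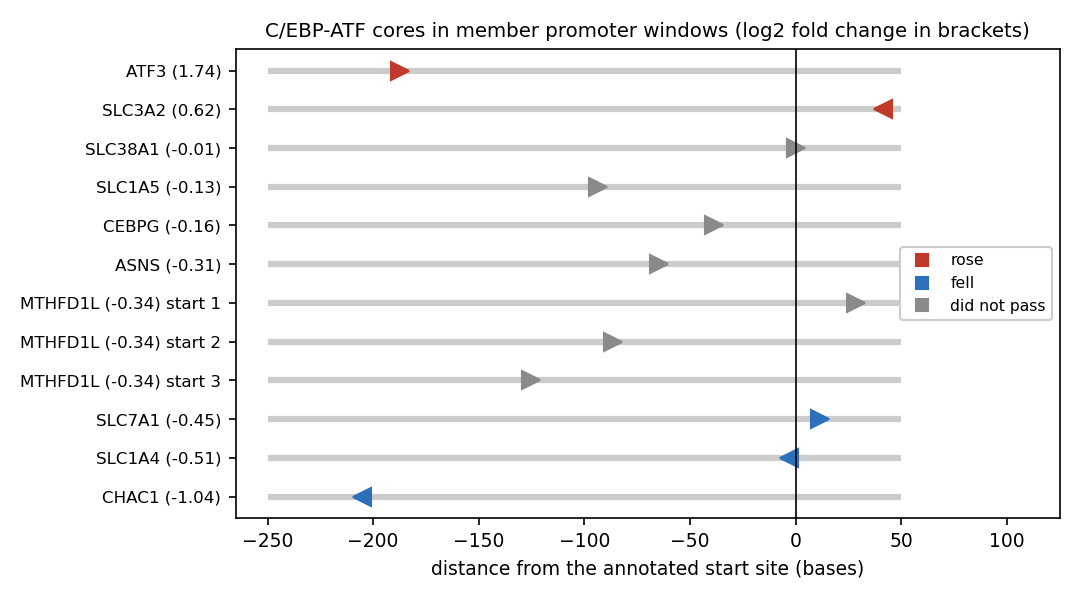
The horizontal axis is the distance in bases from the annotated start site (0), each grey bar is 1 RefSeq promoter window that holds the core, and the arrow marks the core and its strand (right, the gene's own; left, the opposite), coloured by the gene's call. Cores sit from -209 in CHAC1 to 38 in SLC3A2, and genes that rose and fell are both among them; MTHFD1L has 1 core seen from 3 start sites.

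The 250 bases before the start of the most strongly raised member with a core, ATF3, and of the most strongly lowered, CHAC1, are shown in full on the plus strand, which is the strand of both genes, with the core in capitals.

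ATF3 (chr1:212565157-212565406): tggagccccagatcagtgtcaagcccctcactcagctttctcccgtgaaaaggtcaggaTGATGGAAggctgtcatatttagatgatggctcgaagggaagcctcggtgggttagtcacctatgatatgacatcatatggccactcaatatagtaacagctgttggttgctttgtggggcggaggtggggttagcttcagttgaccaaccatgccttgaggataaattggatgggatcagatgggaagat

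CHAC1 (chr15:40953221-40953470): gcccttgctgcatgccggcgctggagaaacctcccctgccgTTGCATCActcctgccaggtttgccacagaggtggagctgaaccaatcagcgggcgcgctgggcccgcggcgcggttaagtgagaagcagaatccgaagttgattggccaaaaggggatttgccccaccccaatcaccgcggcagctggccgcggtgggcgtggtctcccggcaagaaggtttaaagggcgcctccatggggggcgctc

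Further motifs were counted in the same windows, on both strands. The cAMP response element TGACGTCA was present for 1 of 29 members, PPP1R15A, against 3.71% of tested genes. The E-box CACGTG, read by MYC and related factors, was present for 5 of 29 (ALDH18A1, ATF4, MTHFD1L, SLC1A5 and SLC7A5; 17.2%), against 12.3%. The endoplasmic reticulum stress element (ERSE) was present for 0 of 29, against 0.144%. MTHFD1L held the E-box and the C/EBP-ATF core in the same windows, and SLC1A5 held them in windows of separate start sites.

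Among the transcription factors the rise was carried by ATF3 and CHOP. ATF3, a bZIP factor induced by many stresses that also lies downstream of ATF4, rose 3.33-fold (1.74 ± 0.15, adjusted p = 6.06e-30) in the authors' deposited table, the 70th largest positive change of all tested genes. DDIT3, which encodes the pro-apoptotic factor CHOP, rose 1.86-fold (0.89 ± 0.17, adjusted p = 7.57e-06) in the authors' deposited table. ATF4 itself had 0.25 ± 0.16 in the authors' deposited table, which was not called (adjusted p = 0.333; 95% interval -0.06 to 0.57), which leaves room for a rise of up to 0.57 on the log2 scale. NUPR1, a small stress-induced chromatin protein, had 0.45 ± 0.20 in the authors' deposited table, with an unadjusted p of 0.0259 and an adjusted p of 0.13. The remaining 3 did not pass and, in the authors' deposited table, lay between -0.16 and 0.15: ATF5, a close relative of ATF4 (0.06 ± 0.17), CEBPB (0.15 ± 0.14) and CEBPG, the C/EBP partner of ATF4 (-0.16 ± 0.16). ATF3 and DDIT3 were thus the members of this group that changed, and ATF4 and its C/EBP partners were not shown to.

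The effector and feedback genes split in both directions. PPP1R15A (also GADD34), which brings protein phosphatase 1 to eIF2α and so ends the translational block, rose 1.71-fold (0.77 ± 0.16, adjusted p = 2.64e-05) in the authors' deposited table. GADD45A, a growth arrest gene induced by DNA damage and other stress, rose 1.58-fold (0.66 ± 0.14, adjusted p = 4.74e-05) in the authors' deposited table. Both moved in the direction of ATF3 and CHOP.

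TRIB3, CHAC1 and VLDLR went the other way. TRIB3, a pseudokinase that is induced by ATF4 and CHOP and restrains them, fell 1.57-fold (-0.65 ± 0.16, adjusted p = 0.00134) in the authors' deposited table. CHAC1, which degrades glutathione, fell 2.06-fold (-1.04 ± 0.19, adjusted p = 1.34e-06) in the authors' deposited table. VLDLR, a lipoprotein receptor, fell 2.36-fold (-1.24 ± 0.15, adjusted p = 4.10e-14) in the authors' deposited table, the largest fall of the 36 genes and the 118th largest of all tested genes. SESN2, a leucine sensor that restrains mTORC1, had 0.25 ± 0.14 and the secreted glycoprotein STC2 -0.12 ± 0.13 in the authors' deposited table; neither change was called. With CHAC1 and TRIB3 lower and PPP1R15A higher, genes that textbooks place under ATF4 and CHOP lay on opposite sides of 0. DDIT3, which encodes CHOP itself, was higher.

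**Figure D3:**
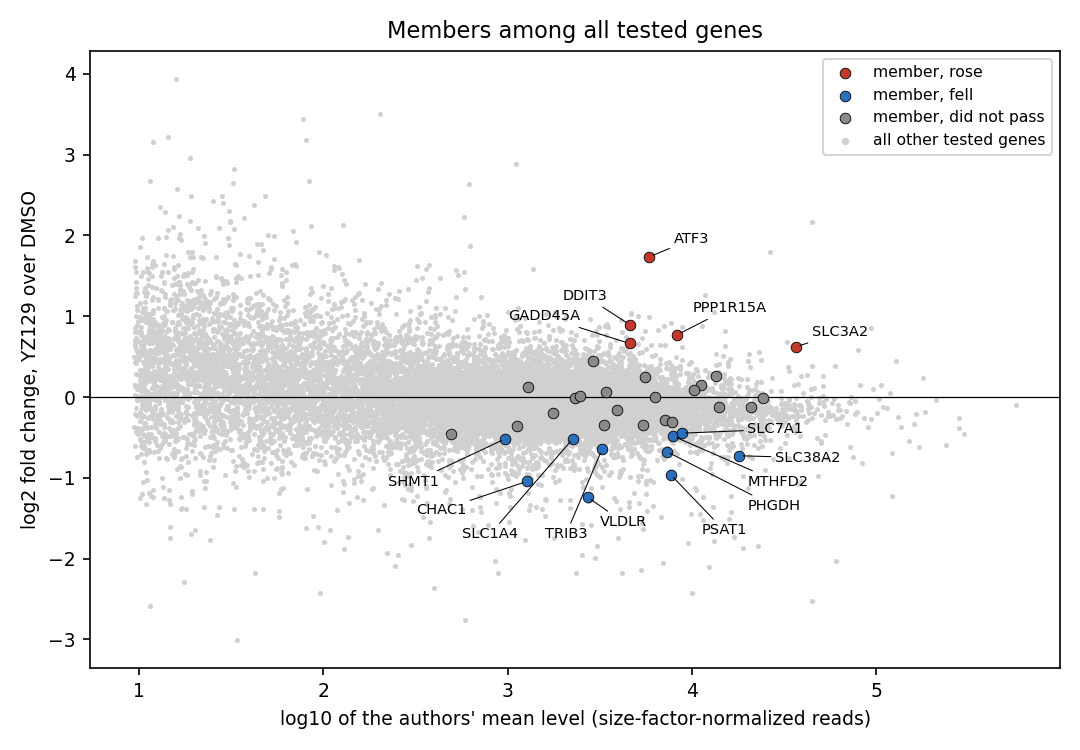
The horizontal axis is the log10 of the authors' mean level (normalized reads, over 8 libraries), the vertical axis the log2 fold change, and each grey point is a tested gene; members are coloured by call and named where they passed. The members lie in the upper part of the level range. ATF3 (1.74) lies on the upper side of the cloud of other genes, and VLDLR (-1.24) and CHAC1 (-1.04) on its lower side. Tested genes at a mean level of 1000 or more reached from -2.52 to 2.89, beyond all members.

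Transcripts of the first and second enzymes of serine synthesis fell. PHGDH, which draws 3-phosphoglycerate out of glycolysis, fell 1.6-fold (-0.67 ± 0.15, adjusted p = 0.000321) in the authors' deposited table. PSAT1, the aminotransferase that follows, fell 1.94-fold (-0.96 ± 0.15, adjusted p = 1.35e-08) in the authors' deposited table. PSPH, the phosphatase that releases serine, had -0.20 ± 0.14 in the authors' deposited table, which was not called (95% interval -0.48 to 0.08). The 3 enzymes of the pathway shared a negative sign, as did most tested genes at a mean level of 1000 or more (4941 of 7377). The aminotransferase was lowest.

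In the one-carbon cycle, in which serine gives up a carbon to folate, 2 of the 5 enzymes among the members fell. SHMT1, the cytosolic serine hydroxymethyltransferase, fell 1.43-fold (-0.52 ± 0.16, adjusted p = 0.0116), and its mitochondrial counterpart SHMT2 had -0.29 ± 0.16 and did not pass (adjusted p = 0.241) in the authors' deposited table. MTHFD2, the mitochondrial methylene-tetrahydrofolate dehydrogenase, fell 1.4-fold (-0.48 ± 0.16, adjusted p = 0.021) in the authors' deposited table; less the median of its level decile it had -0.33 and did not pass (adjusted p = 0.181). MTHFD1L, the mitochondrial formate-releasing synthetase, had -0.34 ± 0.14 (adjusted p = 0.0978) and ALDH1L2, the mitochondrial formyl-tetrahydrofolate dehydrogenase, -0.02 ± 0.17 (adjusted p = 0.97) in the authors' deposited table; neither change was called. All 8 serine and one-carbon enzymes were negative as deposited. Less the median of all tested genes or of the level decile 7 of 8 remained so, ALDH1L2 being the exception. A negative sign was also that of 8302 of all 14812 tested genes, and of 4941 of the 7377 at a mean level of 1000 or more. The difference between SHMT1 and SHMT2 was not tested.

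No enzyme of asparagine, proline or cysteine synthesis passed. ASNS, asparagine synthetase and a standard reporter of ATF4, had -0.31 ± 0.15 in the authors' deposited table, with an unadjusted p of 0.0351 and an adjusted p of 0.157. ALDH18A1, which makes the precursor of proline, had -0.34 ± 0.13 (adjusted p = 0.0637), while PYCR1, which completes proline in mitochondria, had 0.01 ± 0.16 in the authors' deposited table. On the route from homocysteine to cysteine, CBS had -0.46 ± 0.24 and CTH 0.12 ± 0.18 in the authors' deposited table. CBS had the lowest mean level of the 36 genes (491) and, after SLC7A11, their largest SE, so its interval was wide (-0.92 to 0.01).

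Among the transporters SLC3A2 rose and 3 carriers of neutral or cationic amino acids fell. SLC3A2 (also 4F2hc, CD98), the heavy chain that brings several SLC7 carriers to the plasma membrane, rose 1.54-fold (0.62 ± 0.15, adjusted p = 0.000715) in the authors' deposited table. Its light chains among the members did not pass: SLC7A5 (also LAT1), which imports leucine and other large neutral amino acids, had 0.09 ± 0.15 in the authors' deposited table, and SLC7A11 (also xCT), the cystine-glutamate exchanger, had -0.00 ± 0.44. The heavy chain was thus the member of these pairs that changed, and the difference from its partners was not tested.

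The value for SLC7A11 carries little information. At a mean level of 6263 its SE of 0.44 was above that of 98.6% of the 2825 tested genes within a factor of 2 of its level, whose median SE was 0.15. Its 95% interval ran from -0.86 to 0.86, so that neither a rise nor a fall of the size seen for SLC3A2 or SLC38A2 was detectable. Reads of SLC7A5 may be shared with its partial copies SLC7A5P2 and SLC7A5P1, which had 1.76 ± 0.30 (adjusted p = 2.06e-07) and 1.45 ± 0.56 (adjusted p = 0.0656) in the authors' deposited table. Their mean levels were 103 and 20.9, against 10221 for SLC7A5.

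SLC38A2 (also SNAT2), a sodium-coupled carrier of small neutral amino acids that adapts to amino acid starvation, fell 1.66-fold (-0.73 ± 0.21, adjusted p = 0.00594) in the authors' deposited table. SLC1A4 (also ASCT1), which exchanges alanine, serine and cysteine, fell 1.43-fold (-0.51 ± 0.14, adjusted p = 0.00414) in the authors' deposited table. SLC7A1 (also CAT1), the main carrier of arginine and lysine, fell 1.36-fold (-0.45 ± 0.14, adjusted p = 0.0174) in the authors' deposited table; less the median of its level decile it had -0.29 and did not pass (adjusted p = 0.192). Their closest relatives among the members were not called: the authors' deposited table gives SLC38A1 -0.01 ± 0.19 beside SLC38A2, and the glutamine carrier SLC1A5 (also ASCT2) -0.13 ± 0.14 beside SLC1A4. The glycine transporter SLC6A9 had -0.36 ± 0.20 (adjusted p = 0.243) in the authors' deposited table.

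Among the 21 genes without a call, 4 had an unadjusted p under 0.05: NUPR1 was positive, and ALDH18A1, MTHFD1L and ASNS were negative. For 14 of the 21 the whole 95% interval lay within 0.6 of 0 on the log2 scale, which bounds what these libraries leave room for. The intervals of the other 7 reached further, SLC7A11 and CBS furthest.

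A list of eIF2α kinases, phosphatase subunits, initiation factors and related genes gave 0 calls among 20 genes, with a median of -0.02. At an unadjusted p under 0.05, by the authors' DESeq2-type table, it gave 0 rises and 2 falls. This list holds the kinases EIF2AK1 to EIF2AK4 (HRI, PKR, PERK and GCN2). In that order they had -0.28 ± 0.14, 0.02 ± 0.17, 0.13 ± 0.16 and -0.11 ± 0.14 in the authors' deposited table. It also holds the subunits of eIF2 and eIF2B, EIF2A, PPP1R15B, PPP1CA, PPP1CC, GCN1L1, IMPACT, DNAJC3 and QRICH1. Phosphorylation of eIF2α was not measured here. The ATF6 and XBP1 branch of the unfolded protein response gave 1 rise and 1 fall among 21 (9.52%, median -0.19). Over all tested genes 12.9% passed, so neither list of this paragraph exceeded that share. In the authors' deposited table the sensor ERN1 (also IRE1) rose 1.65-fold (0.72 ± 0.21) and the disulfide isomerase PDIA4 fell 1.34-fold (-0.42 ± 0.13).

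Other genes reported to answer to ATF4 or CHOP again went both ways, with 2 rises and 5 falls among 26. That is 26.9%, against 12.9% of all tested genes, with a median of -0.00. The stress cytokine GDF15 (0.62 ± 0.15) and the ubiquitin ligase adaptor KLHL24 (0.77 ± 0.22) rose in the authors' deposited table. The mTORC1 inhibitor DDIT4 (-2.43 ± 0.14), the angiogenic factor VEGFA (-1.04 ± 0.13) and the alanine aminotransferase GPT2 (-0.87 ± 0.14) fell in the authors' deposited table. DDIT4 and VEGFA are also targets of hypoxia-inducible factors. Also lower, though outside the naming rule and picked with their values known, were the translation repressor EIF4EBP1 (-0.85 ± 0.16) and the oxidoreductase ERO1L (-0.73 ± 0.22) in the authors' deposited table. Of 20 cytosolic aminoacyl-tRNA synthetases, many of which ATF4 is known to induce, 0 rose and 1 fell (median -0.12). That is 5%, against 12.9% of all tested genes. Unadjusted, by the DESeq2-type table, 0 rose and 3 fell. The 1 fall was DARS (-0.71 ± 0.15) in the authors' deposited table.

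Folate enzymes outside the member list fell where they changed. Of 17 tested folate and glycine genes 0 rose and 4 fell (23.5%, against 12.9% of all tested genes), with a median of -0.18. Unadjusted, by the DESeq2-type table, 0 rose and 6 fell. The 4 falls included the folate importer SLC19A1 (-0.56 ± 0.17) and thymidylate synthase TYMS (-0.53 ± 0.17) in the authors' deposited table. Named after its value was seen, the cytosolic folate enzyme MTHFD1 (-0.42 ± 0.14) was also among them. TYMS is also a gene of S phase. Of 13 tested methionine and glutathione genes 1 rose and 0 fell (7.69%, against 12.9% of all tested genes, with a median of -0.19). Unadjusted, by the DESeq2-type table, 1 rose and 4 fell. The rise was the betaine methyltransferase BHMT (1.77 ± 0.62), at a mean level of only 35.1 in the authors' deposited table. Of 14 tested glutamine, glutamate and proline enzymes 1 rose and 2 fell (21.4%, against 12.9% of all tested genes, with a median of -0.06). The ornithine decarboxylase ODC1 (0.82 ± 0.15) rose, and the cytosolic proline enzyme PYCRL (-0.52 ± 0.16) and the glutamate dehydrogenase GLUD1 (-0.39 ± 0.13) fell in the authors' deposited table.

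Other amino acid transporters gave 2 rises and 4 falls among 20 tested (30%, against 12.9% of all tested genes, with a median of 0.13). The lysosomal carrier SLC36A1 (0.60 ± 0.16) and the light chain SLC7A6 (0.44 ± 0.14), which also pairs with SLC3A2, rose in the authors' deposited table. The glutamate carriers SLC1A1 (-1.08 ± 0.16) and SLC1A3 (-1.03 ± 0.15), relatives of SLC1A4, the mitochondrial citrate carrier SLC25A1 (-0.66 ± 0.16) and, named after its value was seen, the taurine carrier SLC6A6 (-0.44 ± 0.15) fell in the authors' deposited table. SLC25A1 carries no amino acid and stood on this list in error.

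**Figure D4:**
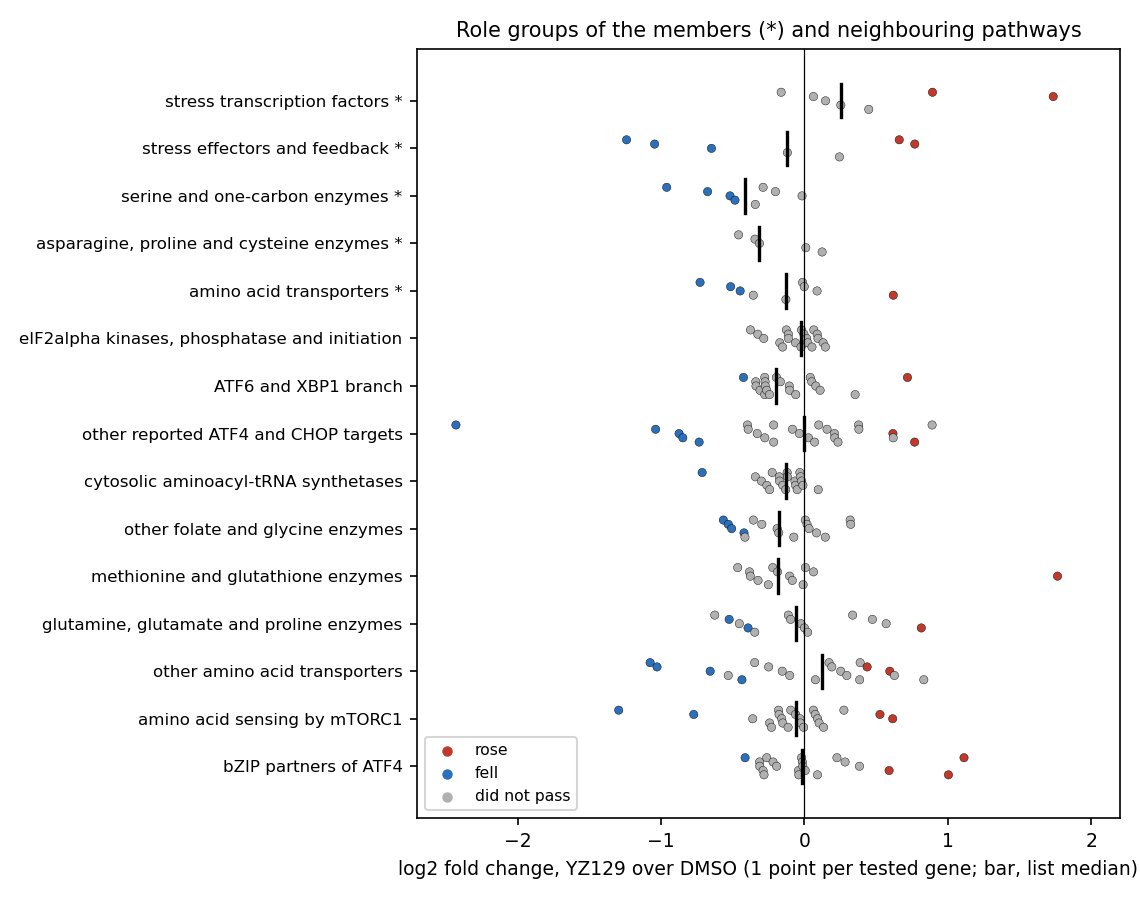
The horizontal axis is the log2 fold change, each point is 1 tested gene and the black bar is the list's median; the 5 role groups of the members are starred and the other 10 lists are neighbouring pathways. The 8 serine and one-carbon enzymes lie at or left of 0 (median -0.41), the 7 stress transcription factors mostly right of it (median 0.25), and the eIF2α list is centred near 0 (median -0.02).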

How the data were processed

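Samples were grouped by their titles. Tools named in the submitters' processing notes, with no role given, are Cufflinks 2.2.1, Cuffdiff and TopHat2 2.0.12, with the build hg19. Per the file headers, the authors deposited a DESeq2 results table; for its version, read counter and annotation, nothing is stated (not given in the sources used here). The deposited mean level is a signal normalized by the authors' size factors. Beside it stand a deposited log2 fold change, its SE on the same scale, a deposited Wald score, and deposited p-values, raw and adjusted. On all 19749 rows the score was the log2 change over its SE and the p-value its normal p (relative tolerance 1e-06). The adjusted p-values were a Benjamini-Hochberg adjustment over 14812 genes. The other 4937 genes, all with mean levels of 9.43 or less, were not tested.

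The changes had been moderated towards 0 before deposit: none of the 525 genes with 2 reads exceeded 0.58 in size, so folds at low levels are understated. The mean levels of genes with 2 reads took 36 distinct values, and sums of 8 steps, 1 per library, gave all 36 (tolerance 1e-07) and those of 365 of 365 genes with 3 reads. No depth in reads can be given.

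The call was the authors' adjusted p under 0.05. Intervals (95%) are normal, from the SE. Alternatives were other thresholds, an adjustment without the authors' filter, and changes less the median of all genes or of the gene's level decile (10 deciles). The latter were run on simulated data in which every gene had the same shift, which cannot test how a shift depends on level. Every member is named; of each other list, up to 3 called genes each way with the smallest adjusted p, except that 1 gene of the folate list is not reported here. The members and lists were chosen with earlier results of these data known. Python 3.11.15, numpy 2.4.6, pandas 2.3.3, scipy 1.17.1 and matplotlib 3.10.9 were used.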

Additional observations from a re-analysis of the deposited data

How the results depend on the processing

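Of the 15 calls, 12 (5 rises and 7 falls) kept their direction and passed at adjusted p thresholds of 0.05 and 0.01, without the authors' filter on low levels, and less the median of all tested genes or of the level decile. The exceptions were SHMT1, MTHFD2 and SLC7A1 at 0.01, and MTHFD2 and SLC7A1 less the level decile median. At 0.01 the falls among serine and one-carbon enzymes went from 4 to 2. At 0.1 enzymes of asparagine, proline and cysteine synthesis went from 0 falls to 1 (ALDH18A1), and MTHFD1L also passed. With a log2 change of at least 1 required, by construction fewer genes passed: 1 rise (ATF3) and 2 falls (CHAC1 and VLDLR) of 36. The rises then went from 2 to 1 among stress transcription factors, from 2 to 0 among effectors and from 1 to 0 among transporters, and the falls from 4 to 0 among serine and one-carbon enzymes and from 3 to 0 among transporters. Less the level decile median, the median of effectors moved from -0.12 to 0.04 and that of transporters from -0.13 to 0.03. Restricted to mean levels of at least 1000, the median of the asparagine, proline and cysteine enzymes moved from -0.31 to -0.15, since CBS drops out. No paired analysis was possible because the table holds no values per library, and leaving out replicates was not run for the same reason. None of the 15 genes changed sign under these alternatives, and none could have. Thresholds and the filter leave the change as it is, and the medians subtracted were small beside the called changes. For SLC7A1, the smallest of the 15, the change was -0.45 and the level decile median -0.16.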

Other observations

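Genes through which amino acids reach mTORC1 were mixed. Of 23 tested genes 2 rose and 2 fell (17.4%, beside 12.9% of all tested genes; median -0.06). In the authors' deposited table the GTPase RRAGA fell 2.45-fold (-1.29 ± 0.15, adjusted p = 1.08e-16) while its dimer partner RRAGC rose 1.44-fold (0.53 ± 0.15). The inhibitor TSC1 rose 1.53-fold (0.62 ± 0.14) and C7orf60, the S-adenosylmethionine sensor also named SAMTOR, fell 1.71-fold (-0.77 ± 0.26) in the authors' deposited table. The fall of RRAGA was larger than that of any of the 36 genes above.

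A list of bZIP transcription factors that can pair with ATF4 or CHOP or resemble them gave 3 rises and 1 fall among 21 tested. The 21 include CEBPZ (0.23 ± 0.15, not called), which is no bZIP factor and stood on this list in error. That is 19%, against 12.9% of all tested genes, with a median of -0.02. The small MAF protein MAFG (0.59 ± 0.14), the NRF2 relative NFE2L3 (1.11 ± 0.29) and BATF2 (1.01 ± 0.28) rose, and the FOS relative FOSL2 (-0.41 ± 0.15) fell in the authors' deposited table. NFE2L3 and BATF2 had mean levels of 79.4 and 126 in the authors' deposited table.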
